A study of Mus musculus with 24 samples.

Results

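The ribosomal protein genes of the cytosolic ribosome were followed in the hearts of mice in which the nuclear activity of the CELF proteins, a family of RNA-binding regulators of alternative splicing, was repressed. A gene was taken as a member when its symbol was Rpl or Rps followed by a number, with an optional letter or like suffix, or was Rpsa, Rplp0, Rplp1 or Rplp2, while the Rps6k kinases and pseudogenes were left out. The rule used the symbol and not the measured changes. It found 93 of 45281 probes on the array, for 63 genes. A probe counted as detected where its signal stood above the negative control beads with a p under 0.05. The 77 member probes detected on 3 or more of the 24 arrays belonged to 56 genes, among 12011 genes tested in all. Of these 56, 34 encode proteins of the large and 22 of the small subunit, and 54 were detected on all 24 arrays, the exceptions being Rpl22l1 on 21 and Rps4l on 20. The filter left out Rpl14, Rpl17, Rpl39l, Rpl6, Rps20, Rps23 and Rpsa.

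Each array, an Illumina MouseWG-6 v2 BeadChip, held the total RNA of the whole heart of 1 female FVB/N mouse. Mice of both transgenic lines are hemizygous. Their transgene encodes a form of CELF protein that enters the nucleus and acts there as a dominant negative, and the promoter of the α-myosin heavy chain gene (α-MHC) limits it to heart muscle after birth. The MHC-CELF∆-10 line expresses the transgene strongly and is called the severe line, and the MHC-CELF∆-574 line expresses it weakly and is called the mild line. Wild type littermates served as controls, 2 from each line at each age. The 3-week arrays comprised 4 hearts of wild type mice and 3 of each line, and the 24-week arrays 4 hearts of wild type mice and 5 of each line. Each level of transgene expression was studied in 1 line, so that the level and other features of the line cannot be told apart. In RNA of a whole heart, fewer cells of a type and less RNA per cell cannot be told apart either.

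A ribosome is built from a small subunit, which reads the mRNA, and a large subunit, which joins the amino acids, and each holds ribosomal RNA and many different proteins. The genes of these proteins are transcribed at high rates in nearly all cells, and their mRNAs start with a C followed by a run of pyrimidines, the terminal oligopyrimidine or TOP motif, through which their translation follows mTOR signalling. A few members have a paralog, named with the suffix l, that is made in fewer tissues or under particular conditions. Rpl3l encodes the paralog of the large subunit protein Rpl3 that is largely restricted to heart and skeletal muscle, while Rpl3, which sits near the peptidyl transferase centre, is made in all tissues. Rps27l is a paralog of Rps27 known as a target of p53.

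The probes of the 3 members that were called in the severe line at 24 weeks are shown because the results rest on them. They are the sense strand of the mRNA, and the capitals mark a polyadenylation signal near the end of Rpl3.
Rpl3l probe, bases 1 to 30 of 50: gcacacctgggatgtagcactcttgctatc
Rpl3 probe, bases 21 to 50 of 50: tggggtctcaccAATAAAatatttctactc
Rps27l probe, bases 1 to 30 of 50: ttcagccatgcacagactgtggttctttgt
The genes lie on chromosome 17 from 24727826 to 24736143 (Rpl3l), chromosome 15 from 80077781 to 80083406 (Rpl3) and chromosome 9 from 66944624 to 66949522 (Rps27l) of the mouse assembly GRCm38.p6. The whole Rpl3l and Rpl3 probes shared no run longer than 5 of their 50 bases.

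RefSeq windows from 250 bases before to 50 bases after a gene's start were at hand for 52 of the 63 members, and not for Rpl3, Rps14, Rps29, Rpl21, Rps4l, Rpl29, Rplp1, Rpl30, Rps20, Rpl32 and Rpl17. A C at the annotated start followed by at least 4 pyrimidines was found in 9 of the 52 (17.3%), against 3.01% of 27025 genes with a window. These were Rpl14, Rpl28, Rpl35, Rpl38, Rplp2, Rps10, Rps15a, Rps21 and Rps6. Annotated starts can lie a few bases from the true one, so this share depends on the annotation. Starts of 3 of them are printed from 10 bases before to 15 after, on the strand of the gene, with the pyrimidine run in capitals, since they show the feature by which the family is known.
Rps6 start, chr4:86857353-86857377 (minus strand): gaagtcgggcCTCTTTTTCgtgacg
Rplp2 start, chr7:141447641-141447665 (plus strand): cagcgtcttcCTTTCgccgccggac
Rps21 start, chr2:180257369-180257393 (plus strand): aggacccgccCTCCTgcccaatagt
The run begins at the annotated start in each of these, and Rpl3l was not among the 9. A gene can have several annotated starts, and any of those with a window was counted.

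Rpl3l was the only member with a match to the MEF2 site, the A and T rich sequence bound by a family of muscle transcription factors, within its windows. Such a match was present in 1 of 52 members and in 3.70% of all genes with a window, on either strand. It lay 123 bases before the downstream of the 2 annotated starts, at 24732685, and the window of the upstream start at 24727826 held none. The surrounding 80 bases are shown with the match in capitals.
Rpl3l upstream, chr17:24732527-24732606 (plus strand): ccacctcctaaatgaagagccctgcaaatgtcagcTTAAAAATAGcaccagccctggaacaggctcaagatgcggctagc
A match to a motif is a description of the sequence and was not tested for binding. The CArG box, the site of serum response factor, was matched in the window of Rpl10a alone among the members, against 1.81% of all genes.

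The values given are the deposited log2 intensities after quantile normalization, and a change is a fitted difference of group means on this scale with its standard error (SE). The tests are those of limma over 12011 genes with Benjamini-Hochberg adjustment, two-sided, and a gene is called at an adjusted p under 0.05. The probes detected on an array made up between 31.99% and 44.39% of all, and arrays correlated with each other at r from 0.929 to 0.994. The arrays formed 2 sets of 12 whose lowest raw intensities were 54.2 to 62.8 and 38.9 to 47.2, and each set held arrays of every group. At each age, however, the wild type mice within a set all came from the same line. The brightest Celf4 probe checked the transgenic and wild type labels, but not those of line or age. It was detected on 16 of 16 transgenic arrays (11.16 to 12.72) and on 0 of 8 wild type arrays (6.33 to 6.49). The other Celf4 probes were weak and overlapped between transgenic and wild type arrays. All 15 cardiomyocyte markers tested were detected on every array, and 0 of 4 lymphocyte markers was.

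On the quantile-normalized scale the ribosomal protein genes as a group were found at nearly the same level in all 6 groups. The mean over the 56 genes, taken per array and averaged per group, lay between 11.55 and 11.58. In the severe line at 24 weeks 2 of 56 members were called higher, where 8.26% of all genes were, and 1 was called lower, where 7.32% of all genes were. The median change of the members was 0.03, and that of all genes 0.00. In this comparison 48 of 56 members (85.7%) lay within 0.25 of no change, against 75.5% of all genes. The wild type and severe line arrays did not overlap for 2 members (3.57%), against 11.5% of all genes.

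In the severe line at 3 weeks 0 members were called higher and 1 lower, where 2.66% and 1.96% of all genes were called. In the mild line 0 members were called in either direction at either age. The background there was 1.07% higher and 1.26% lower at 3 weeks, and 0.425% higher and 0.541% lower at 24 weeks. At an unadjusted p under 0.05 there were 2 members (3.57%) in the mild line at 3 weeks, where 11.2% of all genes were, and 3 (5.36%) at 24 weeks, where 7.85% were. In the severe line there were 4 (7.14%) at 3 weeks, where 16.4% of all genes were, and 7 (12.5%) at 24 weeks, where 25.9% were. The median changes of the members were -0.01, 0.01 and -0.00 in the first 3 of these comparisons. Both subunits had medians near 0 in the severe line at 24 weeks, 0.06 for the 34 large and 0.02 for the 22 small subunit genes, with 21 and 13 genes above 0.

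**Figure D1:**
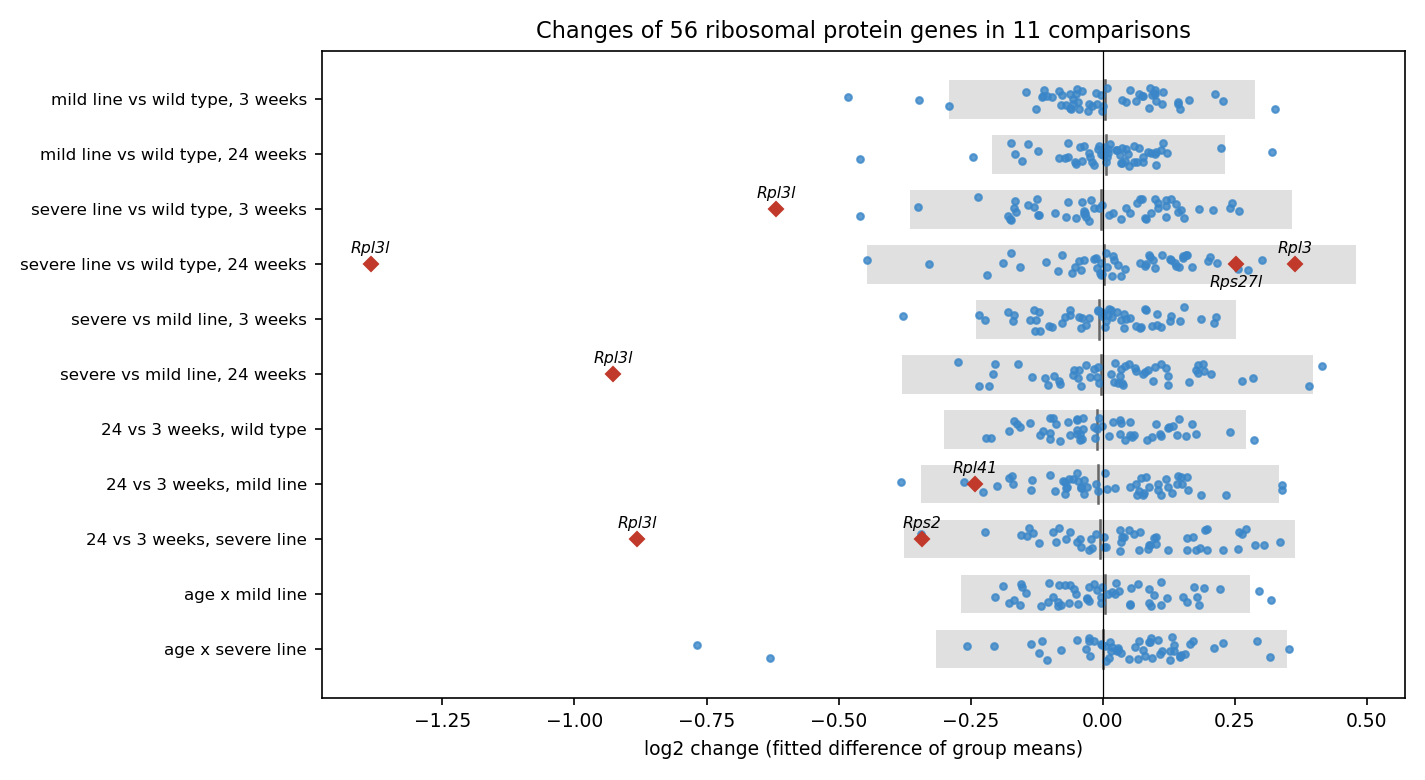
Log2 changes of the 56 ribosomal protein genes (blue points, 1 per gene) in each of the 11 comparisons, with called genes as red diamonds. Grey bars run from the 5th to the 95th percentile of all 12011 genes and the grey tick is their median. Most points lie within 0.25 of 0 in every row, and Rpl3l stands apart on the left in the rows of the severe line at 24 weeks.

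These statements hold on the quantile-normalized scale, which gives every array the same distribution of values. When the raw intensities were only scaled to the same median, the median change of the members moved to 0.18 in the severe line at 3 weeks, with 52 of 56 genes above 0, and the median of all genes moved to 0.11. At 24 weeks the 2 medians in the severe line were then 0.07 and 0.08. With age in wild type 53 of 56 members lay above 0 (median 0.15, all genes 0.06). In the mild line at 24 weeks 8 of 56 did (median -0.09, all genes -0.03). Between the severe and the mild line 50 did at 3 weeks (median 0.17, all genes 0.11) and 49 at 24 weeks (median 0.14, all genes 0.11). Relative to all genes, the members' median lay between -0.08 and 0.09 over the 11 comparisons under that scaling, and between -0.02 and 0.06 as deposited. A change that most transcripts share would not be seen after quantile normalization.

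Rpl3l was the member that changed most. On the wild type arrays at 24 weeks its values were 13.84, 13.18, 13.93 and 13.29, and on the severe line arrays 12.41, 12.36, 12.08, 12.08 and 11.95. All 5 severe line hearts of 24 weeks lay below every other heart of the series. The difference was -1.39 (SE 0.15), which is 2.61-fold lower (adjusted p = 1.22e-06). It was the only member past the thresholds of the study's methods, which also ask for a 2-fold change and which 188 genes (1.57%) met in this comparison. The mild line arrays at 24 weeks read 13.37, 13.02, 13.30, 12.84 and 12.98, between the other groups. The mild line overlapped wild type at that age and differed from it by -0.46 (SE 0.15, adjusted p = 0.285).

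At 3 weeks Rpl3l read 13.73, 13.55, 13.88 and 13.54 in wild type, 13.13, 13.10 and 13.35 in the mild line, and 12.87, 13.41 and 12.89 in the severe line. All 6 transgenic values lay below all 4 wild type values, and those of the 2 lines overlapped each other. At this age 14.7% of all genes did not overlap between the mild line and wild type, and 17.3% between the severe line and wild type. The change was -0.62 (SE 0.18) in the severe line, 1.53-fold lower with an adjusted p of 0.0451. It was -0.48 (SE 0.18) in the mild line, with an adjusted p of 0.210. The call in the severe line rested on single arrays. It was lost without any 1 of the 4 wild type arrays or without severe line replicate 1 or 3 (adjusted p 0.0594 to 0.242), and it stayed without replicate 2, the highest of the 3 (adjusted p = 0.00980).

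Rpl3l was also compared between the 2 lines. Between the severe and the mild line at 24 weeks 0 members were called higher and 1 lower, where 5.94% and 5.33% of all genes were called. The one was Rpl3l, at -0.93 (SE 0.15, adjusted p = 0.000173), with no overlap of the lines, as was so for 9.19% of all genes. Beside it, 3 of 5 atrial, 3 of 9 fibroblast, 4 of 8 macrophage and 2 of 4 smooth muscle markers were higher in the severe than in the mild line. So were 1 of 5 skeletal muscle markers (Pvalb, 1.49) and 1 of 4 lymphocyte markers (Cd79b, 0.30). Of 15 cardiomyocyte markers 2 were lower (Ckm and Ckmt2). The part of these markers in the difference of Rpl3l was not tested. At 3 weeks its difference between the lines was -0.14 (adjusted p = 1.00), and 0 members were called in either direction, where 0.45% of all genes were called higher and 0.125% lower.

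With age, Rpl3l fell in the severe line by 0.88 (SE 0.17, adjusted p = 0.00189). It differed by -0.11 in wild type (adjusted p = 0.874) and by -0.09 in the mild line (adjusted p = 0.866). The difference between the severe line and wild type at 24 weeks exceeded that at 3 weeks by -0.77 (SE 0.23), with an unadjusted p of 0.00339 in limma and an adjusted p of 0.174. The order of the group means ran from wild type at 3 and 24 weeks through the mild line at both ages and the severe line at 3 weeks down to the severe line at 24 weeks. Neighbours in this order overlapped, except that the severe line at 3 weeks and at 24 weeks did not. Between these ages of the severe line 10.5% of all genes did not overlap.

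The fall at 24 weeks was of like size within each of the 2 sets of arrays with different background, at -1.13 (adjusted p = 0.00706) and -1.58 (adjusted p = 0.00384). The wild type mice of that age came from the mild line in the higher set and from the severe line in the lower. Background and the line of the controls cannot be told apart in these fits. Over the 9 fits that each left out 1 wild type or severe line array it ranged from -1.51 to -1.26 and was called in all. Markers of cell types moved in the same comparison, where 8.26% of all genes were called higher and 7.32% lower. Of 15 cardiomyocyte markers tested 1 rose (Mybpc3, 0.38) and 2 fell, the creatine kinases Ckm (-0.82) and Ckmt2 (-0.43). Their summed linear level was 271992 to 287112 in wild type and 247934 to 281872 in the severe line. The median severe line sum, 270970, lay below every wild type sum. Of 5 atrial muscle markers 1 fell (Myl7, -1.35), and their sums were 67831 to 74227 in wild type and 58516 to 76848 in the severe line. Of the fibroblast markers 5 of 9 were higher, with sums of 11835 to 14415 in wild type and 15124 to 22129 in the severe line. Of the macrophage markers 2 of 8 were higher, with sums of 2986 to 3783 and 4084 to 7131. Of the skeletal muscle markers 3 of 5 were higher (Pvalb, Acta1 and Tnnt3) and of the smooth muscle markers 2 of 4 (Acta2 and Tagln). Their part in the level of Rpl3l was not tested.

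**Figure D2:**
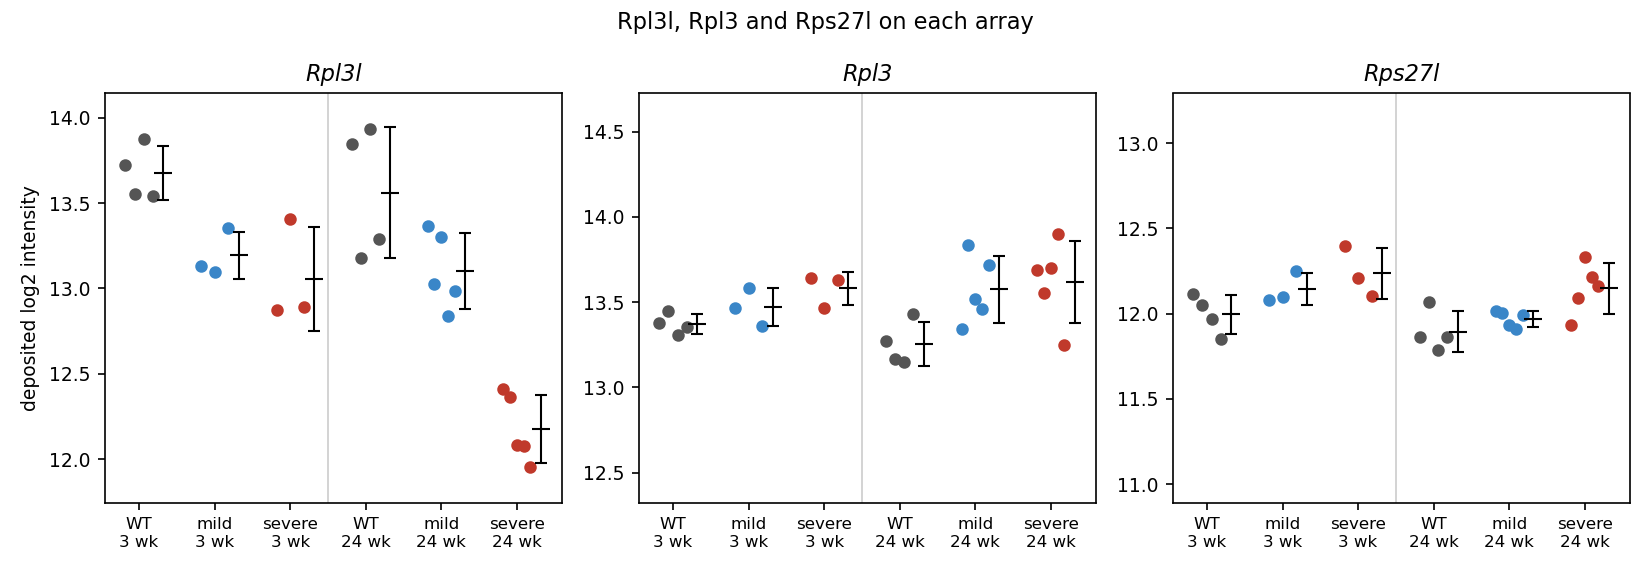
Deposited log2 intensity of Rpl3l, Rpl3 and Rps27l on each array, by group (points, wild type grey, mild line blue, severe line red), with the group mean and SD as bars beside them. The 3 panels span the same number of log2 units. The 5 severe line values of Rpl3l at 24 weeks, 11.95 to 12.41, lie below all others, while Rpl3 and Rps27l overlap between the groups at that age.

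Rpl3, the paralog made in all tissues, moved the other way by a smaller amount. Its values at 24 weeks were 13.27, 13.17, 13.15 and 13.43 in wild type and 13.69, 13.55, 13.70, 13.90 and 13.25 in the severe line. Of the 5 severe line arrays 4 lay above all wild type arrays, and replicate 5 lay among them. Rpl3 rose by 0.36 (SE 0.11), 1.29-fold, with an adjusted p of 0.0230. In the mild line of that age the difference was 0.32 (SE 0.11, adjusted p = 0.285). The call in the severe line was lost in 4 of 9 fits that left out 1 array, namely wild type replicate 2 or 3 or severe line replicate 3 or 4, with adjusted p up to 0.0773.

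At 3 weeks Rpl3 read 13.38, 13.45, 13.31 and 13.35 in wild type and 13.64, 13.47 and 13.63 in the severe line. The groups did not overlap, as was so for 17.3% of all genes, and the difference of 0.21 had an adjusted p of 0.440. In the mild line of 3 weeks it was 0.10 (adjusted p = 0.893). A level of Rpl3l cannot be set against one of Rpl3, since different probes bind with different strength, and only the changes are given side by side.

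Rps27l was the other member called higher in the severe line at 24 weeks. It read 11.87, 12.07, 11.78 and 11.86 in wild type and 11.94, 12.09, 12.34, 12.21 and 12.16 in the severe line, and the groups overlapped through 1 array of each. The change was 0.25 (SE 0.08), 1.19-fold, with an adjusted p of 0.0385. At 3 weeks it was of the same size, 0.24, with an adjusted p of 0.168. Within the 2 sets of arrays with different background the change was 0.05 (higher set, adjusted p = 0.885) and 0.41 (lower set, adjusted p = 0.0595). The sets also differed in the line of their wild type mice. The call was lost in 6 of 9 fits that left out 1 array, which were those without wild type replicate 1, 3 or 4 or severe line replicate 3, 4 or 5, with adjusted p up to 0.132. The marker lists given beside Rpl3l moved in the same comparison as Rpl3 and Rps27l, and their part in these was not tested.

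The other paralogs and their parents were not called in the severe line at 24 weeks. Rpl22 differed by 0.17 (adjusted p = 0.360) and its paralog Rpl22l1 by -0.04 (adjusted p = 0.887). Rpl22l1 was a weak signal near the detection limit, with group means from 6.87 to 7.05. Rpl7l1 differed by -0.19 (adjusted p = 0.334). Rps4x, the X-linked gene, differed by -0.00 (adjusted p = 0.996) and its paralog Rps4l by 0.09 (adjusted p = 0.504). Rpl36a and Rpl36al differed by 0.04 (adjusted p = 0.959) and 0.10 (adjusted p = 0.863), and Rpl39 and Rpl26 by 0.22 (adjusted p = 0.643) and -0.05 (adjusted p = 0.924).

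The 3 stalk proteins Rplp0, Rplp1 and Rplp2, which recruit the translation factors to the large subunit, came close to the threshold in part. Rplp0 had values from 7.40 to 7.69 in wild type and from 7.52 to 8.08 in the severe line at 24 weeks, a difference of 0.30 (SE 0.10) with an adjusted p of 0.0529. Rplp1 ran from 13.89 to 14.27 in wild type and from 14.20 to 14.68 in the severe line, a difference of 0.26 (SE 0.10, adjusted p = 0.0971). Rplp2 differed by 0.02 (adjusted p = 0.964). The ranges of the groups overlapped for all 3. The arrays were also parted into 4 runs of 6 by their numbers in the file headers, which no label names as batches. With the run of 6 arrays as a block in the fit, 5 members were called at this point, Rplp0 and Rplp1 besides Rpl3l, Rpl3 and Rps27l. These were 4 higher and 1 lower, and the share of all genes called rose as well in that fit, to 10.3% higher and 9.25% lower.

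Between 3 and 24 weeks few members were called within a genotype, although their median in wild type depended on the scaling, as given above. In wild type 0 were called in either direction, where 0.966% of all genes were called higher and 1.61% lower. In the mild line 0 were called higher and 1 lower, where 2.15% and 2.95% of all genes were called. This was Rpl41, the smallest ribosomal protein, which read 14.80, 14.58 and 14.56 at 3 weeks and 14.40, 14.47, 14.42, 14.39 and 14.35 at 24 weeks. The ages did not overlap, as was so for 15.8% of all genes, and the gene fell by 0.24 (SE 0.07, adjusted p = 0.0446). The call was lost in all 8 fits that left out 1 of these arrays (adjusted p 0.0532 to 0.319).

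In the severe line 0 members were called higher with age and 2 lower, where 3.21% and 3.67% of all genes were called. Besides Rpl3l this was Rps2, a small subunit protein near the mRNA entry. Rps2 read 13.95, 13.92 and 13.86 at 3 weeks and 13.63, 13.43, 13.80, 13.68 and 13.30 at 24 weeks. The older hearts all lay below the younger ones, and 10.5% of all genes did not overlap between these ages. Rps2 fell by 0.34 (SE 0.10, adjusted p = 0.0319). The call was lost without any of the 3 younger arrays or without replicate 2 or 5 of the older ones (adjusted p up to 0.102). The change with age of the difference from wild type was called for 0 members in either line. The background was 0.0167% higher and 0.05% lower for the mild line, and 0.45% higher and 0.233% lower for the severe line. At an unadjusted p under 0.05 limma gave 0 members for the mild line, where it gave 4.25% of all genes, and 3 (5.36%) for the severe line, where it gave 8.34%.

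Although the groups differed little, single hearts differed much in a subset of the members. The SD within groups had a median of 0.184 over the members, against 0.155 over all genes. It was above 0.3 for 14 of 56 members (25.0%), against 7.34% of all genes. The 14 were Rps7, Rps6, Rps3a1, Rpl24, Rpl36a, Rpl27, Rpl36al, Rpl7a, Rpl39, Rps25, Rpl30, Rpl26, Rps21 and Rps16. The least variable member was Rps29, with an SD of 0.0517, and the most variable was Rps7, with 0.672.

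Rps7, a protein of the small subunit, read 10.56, 11.70, 9.73 and 10.55 in wild type and 9.98, 10.55, 10.92, 10.44 and 12.66 in the severe line at 24 weeks. Rps6, the small subunit protein that is phosphorylated downstream of mTOR, read 8.85, 10.17, 8.40 and 9.02 in wild type and 8.35, 8.76, 9.41, 8.91 and 10.83 in the severe line. The same arrays were high and low for both genes, wild type replicate 2 and severe line replicate 5 at the top and wild type replicate 3 near or at the bottom. The differences between the groups were 0.28 (SE 0.41, adjusted p = 0.755) for Rps7 and 0.14 (SE 0.36, adjusted p = 0.870) for Rps6. With SEs of this size, a change as small as that of Rps27l was not detectable in these genes.

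Many of the 14 variable members moved together. Averaged over them, severe line replicate 5 at 24 weeks lay 0.82 above the mean of the 24 arrays, with 13 of the 14 genes above their mean. Wild type replicate 2 at 24 weeks lay 0.65 above, with all 14 above. Wild type replicate 3 at 24 weeks and wild type replicate 3 at 3 weeks lay at -0.47 and -0.44, with 0 of 14 above. The 41 other members, Rpl3l left out, averaged between -0.06 and 0.09 on every array. After removal of the group means, the 91 pairs of the 14 had a median correlation of 0.62 over the 24 arrays, from -0.08 to 0.97. The pairs of Rps7, Rps6, Rpl24, Rpl27, Rpl36al and Rpl30 ran from 0.86 to 0.97. Pairs of the 41 others ran from -0.85 to 0.91 with a median of 0.01, so opposite deviations can cancel in their average. The 14 were chosen by their spread on these same arrays, so the correlations and the wider range of their average describe them and are no test. They share the arrays and their normalization.

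The 2 high arrays were those with the most probes detected, 44.4% and 43.4%, and the low wild type arrays of 3 and 24 weeks had 33.8% and 36.3%. The order did not hold throughout. The array with the fewest probes detected, mild line replicate 3 at 24 weeks, averaged -0.19 over the variable members, and severe line replicate 2 at 24 weeks, with 42.1% detected, averaged -0.12. The part of RNA quality or of labelling in these values was not tested. Both ends held wild type hearts. Without the 2 high arrays, an alternative chosen after seeing the data, the changes in the severe line at 24 weeks were -1.46 for Rpl3l (adjusted p = 9.94e-07), 0.43 for Rpl3 (adjusted p = 0.00591) and 0.31 for Rps27l (adjusted p = 0.0214).

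**Figure D3:**
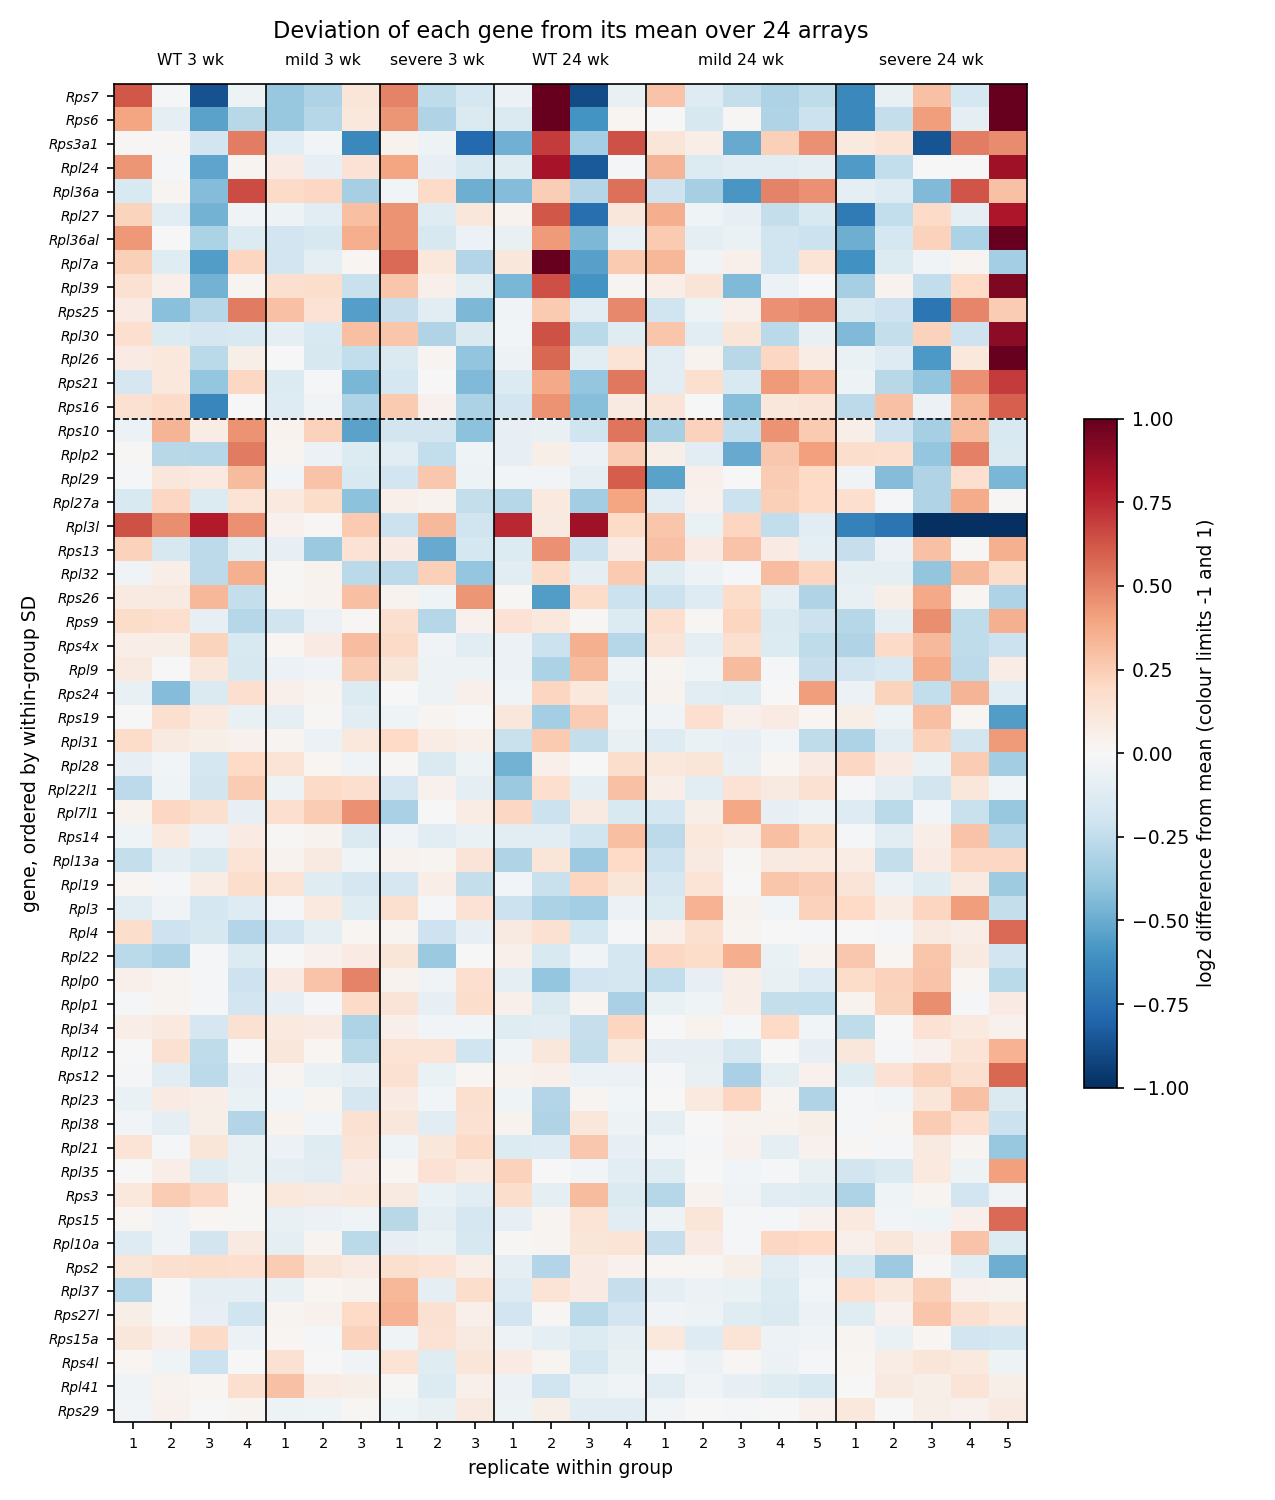
Deviation of each of the 56 members (rows, ordered by their SD within groups) from its mean over the 24 arrays (columns, by group and replicate), in log2 units with the colours limited to -1 and 1. The dashed line parts the 14 members with an SD above 0.3 from the rest. The upper rows are red together on wild type replicate 2 and severe line replicate 5 of 24 weeks, and the row of Rpl3l is blue on all 5 severe line arrays of 24 weeks.

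**Figure D4:**
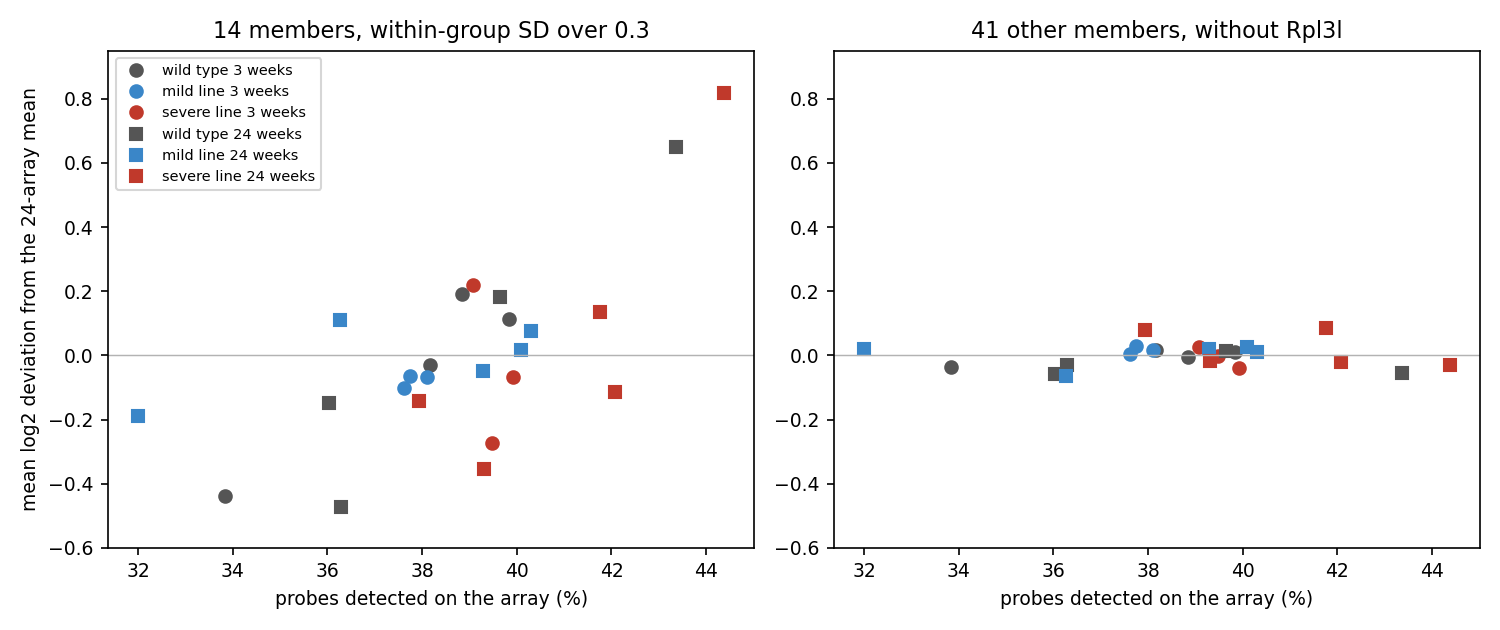
Mean log2 deviation of the 14 variable members (left) and of the 41 other members without Rpl3l (right) on each array, against the percentage of probes detected on that array. Symbols are circles at 3 and squares at 24 weeks, coloured by genotype. The left panel runs from -0.47 to 0.82 and the right from -0.06 to 0.09. The 14 were chosen by their spread on these arrays, so the wider range on the left is no test.

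Another pattern followed the numbers of the arrays in the file headers. On the 6 arrays numbered 19 to 24 a group of members read higher than on the 18 others. These 6 were replicate 4 of wild type at 3 weeks, replicate 4 of wild type at 24 weeks, and replicates 4 and 5 of the mild and of the severe line at 24 weeks, so that no transgenic array of 3 weeks was among them. Rpl36a read 11.57 to 11.94 on them and 10.70 to 11.52 on the rest, with no overlap. Rps25 read 11.64 to 11.90 against 10.65 to 11.67, and Rps21 12.91 to 13.39 against 12.24 to 13.08. In all, 10 of 56 members (17.9%) lay more than 0.2 above their group means on these arrays, against 3.57% of all genes. Among the 10 were Rpl36a, Rps25, Rps3a1, Rps21 and Rpl26 of the variable members. Severe line replicate 5 of 24 weeks was among the arrays, so this pattern and that of the variable members are not separate. Rpl3l lay below its group mean on all 6, as did Rpl7l1, Rplp1 and Rps4x, and the share of all genes that did so was not taken. The fall of Rpl3l with age in the severe line rests in part on replicates 4 and 5 of 24 weeks, which are among the 6. This is a description of array numbers, and what else the 6 arrays shared was not tested.

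Several members were read by more than 1 kept probe, 15 in all, and the brightest stood for the gene. When each kept probe was taken on its own, 8 changes were called over all comparisons, and 0 were called in opposite directions for a gene. The called genes Rpl3l, Rpl3, Rps27l and Rpl41 each had only 1 probe on the array. Opposite calls were not possible for them, and no second probe could check their changes. The brightest probe of Rpl23 is shown since it may read more than that gene.
Rpl23 brighter probe, bases 7 to 36 of 50: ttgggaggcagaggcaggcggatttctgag
Rpl23 next probe, bases 1 to 30 of 50: gcatccaacgcaggcagcattgcatgattc
The brighter one resembles the B1 repeat that is scattered through the mouse genome, and stretches of 20 of its bases recur in 2 other probes of the array and in the promoter windows of 3 other genes. Of the 56 probes that stood for a gene, 10 shared 20 bases with another probe or window. Ribosomal protein genes have many processed pseudogenes, and transcripts of these were not told apart here.

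Lists of neighbouring genes of the translation machinery were counted as well. In the severe line at 24 weeks 8.26% of all genes were called higher and 7.32% lower. Between the severe and the mild line at that age 5.94% were called higher and 5.33% lower. In the severe line at 24 weeks 2 of 45 tested genes of ribosome biogenesis and RNA polymerase I rose, the assembly factors Rrp12 (0.56) and Pes1 (0.54), and 2 fell, the polymerase subunits Polr1a (-0.49) and Polr1d (-0.48). Of 29 initiation factors 1 rose (Eif1a, 0.34) and 1 fell (Eif2b4, -0.49). Of 14 elongation factors and other TOP transcripts 0 were called against wild type, while Eef1a1 (0.85) and Nap1l1 (0.54) were higher in the severe than in the mild line. Of 20 regulators of the translation of ribosomal protein mRNAs 0 were called against wild type, and Sesn1 (-0.55) and Eif4ebp2 (-0.39) were lower in the severe than in the mild line.

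The mitochondrial ribosome, which translates the few proteins encoded by mitochondrial DNA, has its own set of nuclear-encoded proteins. Of 71 tested genes of this set 0 rose and 39 fell in the severe line at 24 weeks, with a median of -0.36. Of all genes 8.26% were called higher and 7.32% lower. Among the 56 cytosolic genes there were 2 rises and 1 fall, with a median of 0.03. Examples of the mitochondrial set are Mrps35 at -0.74 and Mrpl14 at -0.69. At 3 weeks 0 rose and 11 fell in the severe line with a median of -0.32, where 2.66% and 1.96% of all genes did. In the mild line 0 were called at either age, with medians of -0.15 at 3 and -0.06 at 24 weeks. Of all genes 1.07% were called higher and 1.26% lower there at 3 weeks, and 0.425% and 0.541% at 24 weeks. Between the lines at 24 weeks 28 were lower in the severe line, with a median of -0.32, where 5.33% of all genes were lower. The difference between the 2 sets of ribosomal proteins was not tested.

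**Figure D5:**
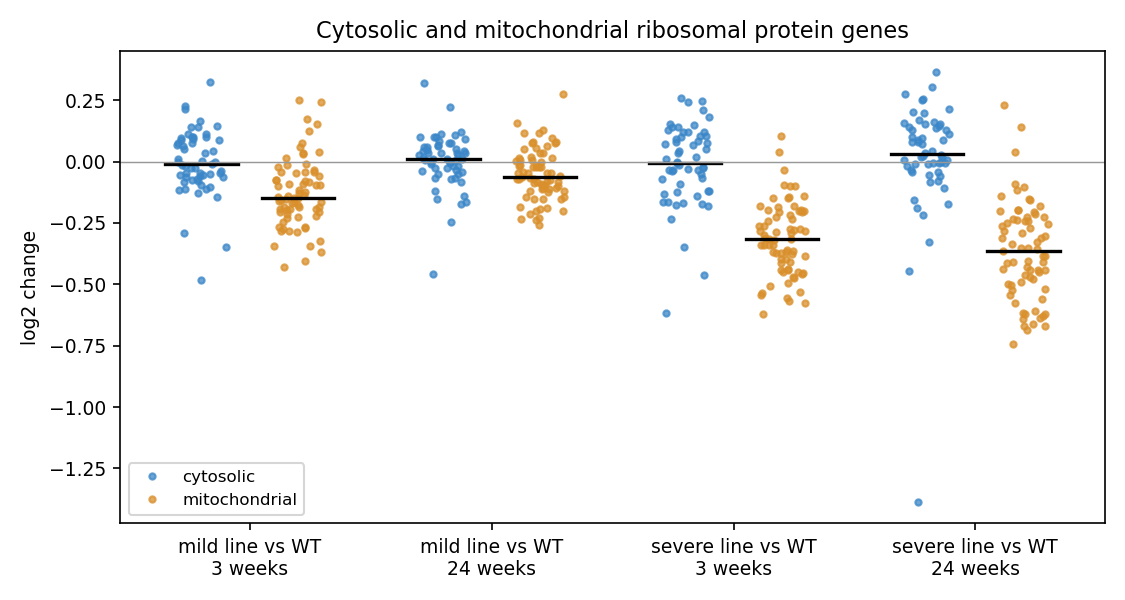
Log2 change against wild type of 56 cytosolic (blue) and 71 mitochondrial (orange) ribosomal protein genes in the 2 lines at both ages, 1 point per gene, with the median as a bar. The cytosolic medians lie between -0.01 and 0.03, and the mitochondrial ones between -0.36 and -0.06.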

How the data were processed

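The authors deposited, for 24 whole-heart arrays, bead-summary intensity values that were not normalized between arrays, log2 values after quantile normalization, and a detection p-value for each probe. Which scanner and normalization software were used was not given in the sources used here. Log2 values as the authors deposited them ran from 5.82 to 15.16. Quantile normalization of the intensities here came within 0.190 of them, so no background had been subtracted and changes of weak probes are understated. Another 48 per-sample columns were not used, and arrays of an earlier series at 3 weeks were not analysed here.

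Of 45281 probes 34885 had 1 gene symbol, 18 several and 10378 none in the platform annotation, and none was named from several. Of 22663 probes detected at p under 0.05 on at least 3 arrays, 18907 had a symbol, and the brightest over all arrays stood for a gene. All groups entered a single linear model in limma 3.58.1 (lmFit, eBayes) under R 4.3.3, and Benjamini-Hochberg adjustment ran over 12011 genes in each comparison. The fit was tested on simulated data. Nothing was known of the cages or litters of the mice beyond their lines, and p-values measure the spread between these hearts. The number of arrays, 3 to 5 per group, limits the precision.

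Members and gene lists were chosen with earlier results of these data known. Named were the stalk proteins, Rps6 and the paralogs with their parents, the members called in a comparison (up to 5 each way) and up to 4 called genes of each other list. The variable members were named by their SD, after their values were seen. Deviations of same-numbered replicates correlated weakly, with a mean r of 0.085 over 60 pairs (-0.32 to 0.57). Over 178 other pairs the mean was -0.03 (-0.56 to 0.70), and the difference was not tested. No label pairs the hearts, so the numbers were not treated as pairing them. Probe sequences were decoded from the probe identifiers of the platform annotation, with all 45281 check sums matching, and promoter windows came from RefSeq (GRCm38.p6). Alternatives covered the choice of probe, the detection filter, scaling and background, the samples in the fit, blocks, weights and single arrays left out.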

Additional observations from a re-analysis of the deposited data

Results flagged for a closer look

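Of 72 sets of values tested (18 named members in the 4 groups of 4 or 5 arrays), 1 held an array far from the others. Rpl26 read 11.18 on wild type replicate 3 at 3 weeks, while the next array read 11.50 and the highest 11.55, so that the gap took up 0.872 of the range. Chance flags about 1 in 20 such sets, which is 3.6 of 72. That array was also low for the 14 variable members, of which Rpl26 is one.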

How the results depend on the processing

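The fall of Rpl3l in the severe line at 24 weeks was called under all 15 alternatives (-1.58 to -1.13), while the calls of Rpl3 (0.30 to 0.43) and Rps27l (0.05 to 0.41) there were lost under 6 and 7 of 15, and the call of Rpl3l at 3 weeks under 7 of 14. The cause was not tested in any case. Rpl3l, Rpl3 and Rps27l were each read by 1 probe, which was detected on all 24 arrays. Alternatives that altered only the choice of probe or the detection filter could not move the size of their changes. Such alternatives could act only through the test and its adjustment over genes. The totals of 15 and 14 include them, so they are not that many separate checks of the size. In the severe line at 24 weeks, where 3 members were called, 1 was called with neqc background correction, with only the compared groups in the fit, within the 12 arrays of lower background or at the thresholds of the methods, and 5 with the run of 6 arrays as a block. At 3 weeks, where 1 was called, 0 were when every probe was tested alone, without the detection filter, with median-scaled intensities, with neqc, against wild type of the own line, within either background set or at the methods' thresholds, and 2 with array weights. In the mild line 1 was called at 3 weeks with only the compared groups or with array weights, and 1 at 24 weeks with array weights, in place of 0. Between the lines at 24 weeks, in place of 1, there were 2 with median scaling, 5 with array weights, 4 with the run block, 0 within the arrays of higher background, 0 at the methods' thresholds, and 2 without the 2 arrays high in the variable members, the last chosen after seeing the data. With age in the mild line, in place of 1, there were 2 with every probe alone, 3 with array weights, and 0 with probes detected on all 24 arrays, median scaling, neqc, within either background set or at the methods' thresholds. With age in the severe line, in place of 2, there was 1 with median scaling, neqc or only the compared groups, and 0 within either background set or at the methods' thresholds. Rps27l in the mild line at 24 weeks turned to -0.037 with median scaling (0.08 as deposited), and Rpl3l between the lines at 3 weeks to 0.026 within the arrays of higher background (-0.14 over all), neither being called. With single arrays left out, the number of called members ran from 1 to 4 in the severe line at 24 weeks, from 0 to 2 at 3 weeks, from 1 to 2 between the lines at 24 weeks, from 0 to 1 with age in the mild line and from 1 to 3 with age in the severe line. Most counts under the alternatives stand without the share of all genes called in the same fit. They show how the calls depend on the settings and cannot be weighed against all genes.

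With the replicate number added as a replicate block, although no label pairs hearts of the same number, 4 members were called in the severe line at 24 weeks, 1 at 3 weeks, 3 between the lines at 24 weeks, 0 with age in the mild line and 1 with age in the severe line. Rpl3l at 24 weeks was then at -1.25 (adjusted p = 1.16e-05 in limma). The counts of this fit also stand without the share of all genes called in it. Members near the detection limit, Rpl22l1 and Rps4l, are compressed towards the background, and a change in them would be understated.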
